A study of Mus musculus with 8 samples.

Results

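The Fat and Dachsous giant cadherins were followed through 7 genes, Fat1, Fat2, Fat3, Fat4, Dchs1, Dchs2 and Fjx1, out of the 43346 gene identifiers counted in notochord-derived cells (NDCs) of the mouse. The genes were chosen by symbol, as a whole family with the kinase that modifies it and with no threshold on a measured value, and all 7 had enough counts to be tested. The family itself was proposed with earlier E12.5 and P0 values of these data known. RNA came from 4 litters at embryonic day 12.5 (E12.5) and 4 litters at postnatal day 0 (P0), and the animals of a litter were pooled into a single sample. Every animal at both stages carried Shh-cre and ROSA:YFP, so that cells that express or once expressed Shh are marked by YFP. The Shh gene is also active in the floor plate of the neural tube, so the label alone does not define a notochord cell. At E12.5 whole notochords (labelled notochordal cells) were dissected without sorting, and at P0 cells of the nucleus pulposus (NP) were released mechanically and sorted for YFP. Stage and isolation therefore cannot be told apart in any value below, and in bulk RNA fewer cells of a type and less RNA per cell cannot be told apart either.

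Fat and Dachsous proteins are very large cadherins with long chains of extracellular cadherin repeats. Fat4 on the surface of a cell binds Dchs1 on its neighbour, and Fjx1, a kinase of the Golgi apparatus, phosphorylates cadherin repeats of these proteins and alters how they bind. The pair is known for orienting cells within a tissue (planar cell polarity) and for restraining growth, in part through the Hippo pathway, and mice that lack Fat4 or Dchs1 form misshapen vertebrae. Fat1 and Fat3 are known instead for acting on the actin cytoskeleton and on cell protrusions, and Fat2 for collective migration of epithelial cells.

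The cadherin genes shared a layout in which a single large exon held much of the transcript. Positions are those of Gencode M21 on GRCm38. Fat4 (ENSMUSG00000046743) lies on chromosome 3 from 38886940 to 39011985, with 17 exons in its longest coding transcript, of which the largest holds 32.2% of the transcript's length. Dchs1 (ENSMUSG00000036862) lies on chromosome 7 from 105752990 to 105787654 and has 21 exons. Fat3 (ENSMUSG00000074505) has the longest span, 591 kb on chromosome 9 from 15910189 to 16501285. Fat1 (ENSMUSG00000070047) lies on chromosome 8 from 44935447 to 45052257, Fat2 (ENSMUSG00000055333) on chromosome 11 from 55250609 to 55336564, and Dchs2 (ENSMUSG00000102692) on chromosome 3 from 83127948 to 83357209. The annotated exons of these 6 genes cover between 10783 bases in Dchs2 and 21478 bases in Fat3. Fjx1 (ENSMUSG00000075012), on chromosome 2 from 102449366 to 102452499, has a single exon of 3134 bases.

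Fat3 and Fat4 were the Fat genes with lower abundance at P0, and the 250 bases before their RefSeq start sites (GRCm38.p6) are shown because they differ widely in CpG dinucleotides, which are in capitals. The Fat3 window is chr9:16502055-16502304 on the minus strand and the Fat4 window is chr3:38886690-38886939 on the plus strand.
Fat3: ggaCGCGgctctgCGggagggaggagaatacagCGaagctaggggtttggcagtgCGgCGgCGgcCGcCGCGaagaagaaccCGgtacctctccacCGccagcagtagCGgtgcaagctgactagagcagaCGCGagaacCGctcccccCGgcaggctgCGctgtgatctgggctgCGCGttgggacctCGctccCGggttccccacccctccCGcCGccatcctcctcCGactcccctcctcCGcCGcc
Fat4: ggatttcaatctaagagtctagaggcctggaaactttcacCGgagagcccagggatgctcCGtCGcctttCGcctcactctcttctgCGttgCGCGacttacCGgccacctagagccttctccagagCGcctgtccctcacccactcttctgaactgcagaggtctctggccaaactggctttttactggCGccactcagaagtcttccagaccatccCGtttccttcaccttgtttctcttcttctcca
The Fat3 window held 27 CpG dinucleotides with a GC content of 70.4%, and the Fat4 window held 11 with 54.8%. Over 32851 promoter windows of the same length the median was 6 CpG dinucleotides. Neither window held GGAATG (the core of TEAD sites, found on either strand in 12.6% of all windows), GGGCGG (the GC box, 32.7%), CCAAT (33.8%), CACGTG (the E-box, 6.02%), TATAAA (12.4%) or TTTGAT (the core of TCF/LEF sites, 10.6%). The RefSeq start sites of Fat1 and Fat2 lay 14761 and 24307 bases inside the Gencode genes, so their windows are not shown. That of Fat3 lay upstream of the Gencode gene, at -769 bases from its start, and that of Fat4 was the Gencode start.

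Values are listed by litter, always in the order NDP10-2, NPD3, NPD4, NPD9-2 for E12.5 and NPD26, NPD27, NPD28, NPD30 for P0. Between 4442775 and 7180221 reads per litter fell on genes at E12.5, and 6371842 to 8904050 at P0. A count of 3 equals 0.337 to 0.675 counts-per-million (CPM) of these reads, before the normalization that the CPM values below include. This floor covers counting error only. Reads that htseq-count left out because they fell on more than a single gene were 16.3% and 17.5% of all reads in NDP10-2 and NPD9-2 and 7.07% to 11.6% in the others. Of the notochord markers, T was abundant in every litter (242 to 942 CPM at E12.5 and 574 to 2320 CPM at P0), whereas Noto had at most 3 counts in any litter. Of the 10 notochord genes listed, Shh and Foxa1 fell, with Shh going from 420 to 1350 CPM in E12.5 litters to 0.157 to 11.8 CPM in P0 litters, Krt19 and Cd24a rose, and the other 6 were not called. Genes of several other cell types moved with the stage. All 8 sclerotome genes fell, from a summed 202 to 275 CPM at E12.5 to 26.5 to 46.6 CPM at P0, and 6 of 7 skeletal muscle genes fell, from 617 to 2680 CPM to 17.7 to 78.7 CPM. All 12 leukocyte genes rose, from 70.6 to 203 CPM to 577 to 6281 CPM, and 6 of 8 osteoblast genes rose, from 56.3 to 333 CPM to 1105 to 1921 CPM. Of 9 erythroid genes 6 fell, from a summed 10144 to 49398 CPM to 363 to 1247 CPM. Only Sox2 of 13 neural genes and Emcn of 7 endothelial genes were called, both lower at P0. Among 8 chondrocyte genes 3 rose and 1 fell. Noto, Bglap, Matn1, Myf5, Sox1, Sox3, Olig2, Nkx2-2 and Neurod1 did not pass the count filter and were not tested.

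Fat4, the receptor for Dachsous ligands, had the largest change of the family. Its abundance was 253, 379, 242 and 283 CPM in the E12.5 litters. In the P0 litters it was 15.7, 18.6, 16.2 and 16.7 CPM. Every E12.5 litter lay far above every P0 litter, and the P0 litters were nearly level with each other. The means were 289 ± 62.4 CPM and 16.8 ± 1.25 CPM (SD over n = 4 litters per stage), a 17.2-fold lower abundance at P0 (log2 fold change -4.10, standard error 0.25, adjusted p = 1.63e-05 by edgeR's quasi-likelihood test). Of all genes tested, 0.828% fell further.

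Dchs1, the ligand that binds Fat4, fell alongside it. It had 197, 122, 89.2 and 171 CPM in the E12.5 litters. At P0 it had 13.995, 13.6, 8.36 and 11.5 CPM. The stages did not overlap, and the lowest E12.5 litter was still well above the highest P0 litter. The means were 145 ± 48.3 CPM and 11.9 ± 2.57 CPM (SD over n = 4 litters per stage), a 12.2-fold lower abundance at P0 (log2 fold change -3.61, standard error 0.32, adjusted p = 8.69e-05 by edgeR).

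Fat3, known for shaping neuronal processes in the retina, fell by less. It had 90.1, 153, 107 and 84.3 CPM in the E12.5 litters, whereas at P0 it had 13.995, 17.6, 29.4 and 27.7 CPM. The stages again did not overlap. The means were 109 ± 31.2 CPM and 22.2 ± 7.56 CPM (SD over n = 4 litters per stage), a 4.89-fold lower abundance at P0 (log2 fold change -2.29, standard error 0.31, adjusted p = 0.000631 by edgeR). Thus 3 of the 7 members passed an adjusted p of 0.05 and all 3 were lower at P0. Over all 15467 genes tested, 27.9% passed and 12% passed with lower abundance at P0. The ranges of the stages did not overlap for these 3 members, and for 29.9% of all genes tested. Because of how the family was proposed, these p-values place each change against the spread between litters and are not independent evidence for the choice.

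**Figure D1:**
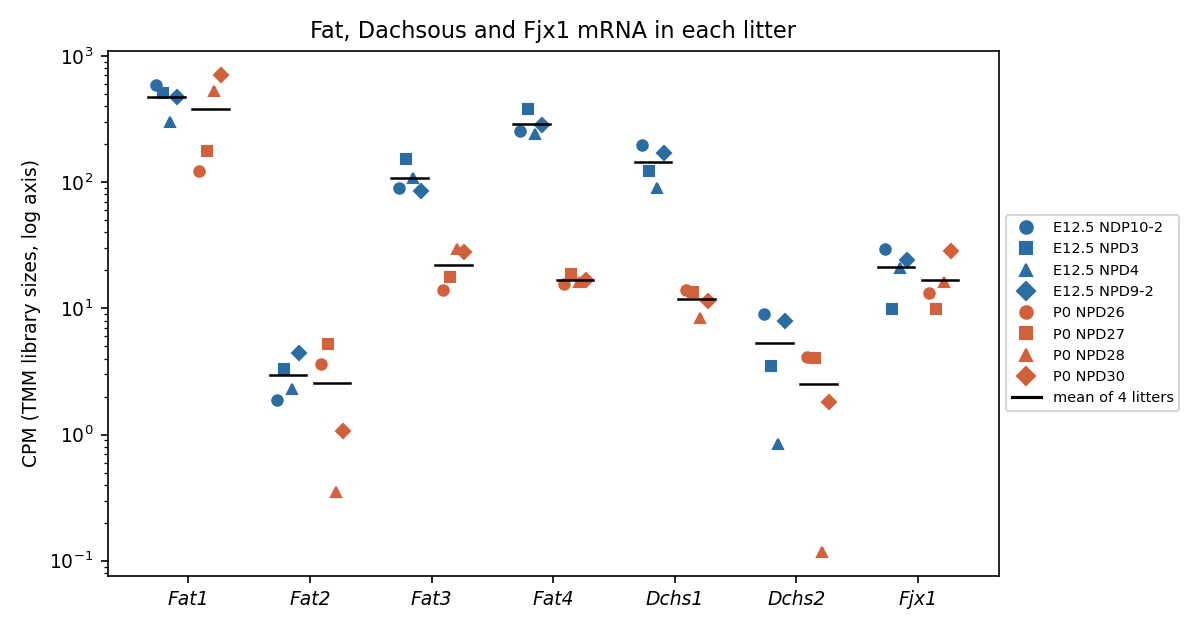
Abundance of the 7 members in CPM on a log axis, with a point for each litter (blue, E12.5; orange, P0; the symbol gives the litter) and a black bar for the mean of 4 litters. For Fat3, Fat4 and Dchs1 all E12.5 points lie above all P0 points, and the P0 points of Fat4 lie between 15.7 and 18.6 CPM. For Fat1, Fat2, Dchs2 and Fjx1 the stages overlap.

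The sclerotome, the paraxial mesoderm beside the notochord, moved in the same direction as Fat4 and Dchs1. Its summed level was 237, 275, 202 and 266 CPM in the E12.5 litters, which places these litters in the same order as their Fat4 abundance but not as their Dchs1 abundance. At P0 the summed level was 37.4, 46.6, 26.5 and 45.0 CPM, an order that neither Fat4 nor Dchs1 followed, and only Uncx and Nkx3-2 were at 0 in any litter, both in NPD28. The E12.5 litter lowest in Fat1, Fat4, Dchs1 and Dchs2, NPD4, had a summed 2616 CPM of 13 neural genes, beside 157 to 217 CPM in the other E12.5 litters and 393 to 1027 CPM at P0. Its sum came mainly from Neurod1, Elavl3, Elavl4, Tubb3, Dcx and Stmn2. Sox1, Sox3, Pax6, Olig2 and Nkx6-1 were not highest in NPD4 among the E12.5 litters. NPD4 was also the lowest E12.5 litter in the summed notochord (2118 CPM), chondrocyte (2370 CPM), muscle (617 CPM) and osteoblast (56.3 CPM) genes, and the highest in endothelial genes (171 CPM). The part of sclerotome, muscle or neural cells in the change of Fat4, Dchs1 and Fat3 was not tested. Fat4 shared 1209 exonic bases with the antisense gene C230034O21Rik, for which 62 to 111 reads were counted at E12.5 but 2 to 16 at P0. It shared 281 with another antisense gene, Gm43539, which is not among the genes counted in these data. Dchs1 shared 648 with the pseudogene Gm15645, which had no count in any litter. Dchs2 shared 1299 with Gm10710, for which no read was counted at E12.5 and 0 to 7 at P0, and Fat1 shared 487 with the antisense gene Gm2366, for which 6 to 41 reads were counted at E12.5 but 0 to 15 at P0. Whether the counting used strand is not given in the sources used here, and reads on shared bases cannot be told apart without it.

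Fat1 is the member known for binding regulators of actin at cell protrusions, and it was the most abundant cadherin of the family at both stages. It had 590.0, 509.9, 299 and 474 CPM in the E12.5 litters. At P0 it had 122 and 175 CPM in NPD26 and NPD27 and 523 and 711 CPM in NPD28 and NPD30. The P0 litters thus formed a low pair beneath every E12.5 litter and a high pair above 3 of the 4. The means were 468 ± 123 CPM and 383 ± 282 CPM (SD over n = 4 litters per stage), and the log2 fold change was -0.29 (standard error 0.51, adjusted p = 0.714 by edgeR). Without the P0 litter NPD26 the estimate was 0.016. The summed level of 8 chondrocyte genes was 2615 and 2013 CPM in NPD26 and NPD27 and 6853 and 8891 CPM in NPD28 and NPD30. Within that list Matn1, Matn3, Comp and Snorc were not higher in both litters of the second pair. T had 1010 and 574 CPM in the first pair and 1370 and 2320 CPM in the second. Shh, Foxa1, Krt8, Cd24a and Sox9 of the notochord list parted the pairs in this direction, whereas Noto, Foxa2, Krt18 and Krt19 did not. The summed leukocyte level did not part these pairs, at 5498, 6281, 5651 and 577 CPM, but its genes differed. Laptm5, Tyrobp, Fcer1g, Lyz2, Csf1r and Cd53 were each higher in both litters of the first pair than in the second. Ptprc, Coro1a, Cd52, Itgam, Spi1 and Rac2 did not part the pairs. The part of these cell types in the Fat1 spread was not tested.

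Fjx1, the Golgi kinase, has a far shorter transcript than the cadherins it modifies. It had 29.7, 9.95, 20.8 and 24.1 CPM in the E12.5 litters, whereas the P0 litters had 13.2, 9.95, 16.1 and 28.2 CPM. The ranges were nearly the same at both stages. The means were 21.1 ± 8.32 CPM and 16.9 ± 7.96 CPM (SD over n = 4 litters per stage), and the log2 fold change was -0.32 (standard error 0.40, adjusted p = 0.59 by edgeR).

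Fat2 and Dchs2 were near the lower end of what this depth can show. Fat2 had 8, 17, 19 and 18 reads at E12.5 and 23, 36, 3 and 7 reads at P0. Its log2 fold change was -0.22 (standard error 0.73, adjusted p = 0.854 by edgeR), and it was 0.16 without NPD28. Dchs2, the other Dachsous gene, had 38, 18, 7 and 32 reads at E12.5 and 26, 28, 1 and 12 reads at P0. Its log2 fold change was -1.06 (standard error 0.88, adjusted p = 0.409 by edgeR). Both genes were lowest at P0 in NPD28 and next lowest in NPD30, the litters that were highest for Fat1. A stage difference in either gene was not detectable at this depth and spread.

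**Figure D2:**
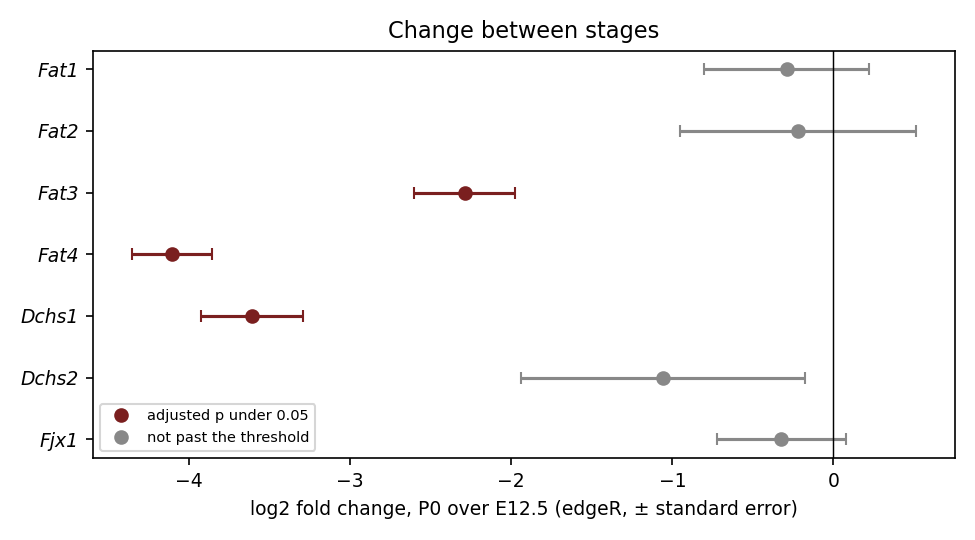
Log2 fold change of each member, P0 over E12.5, from the edgeR fit across all genes, with the standard error as a bar. Fat4 (-4.10), Dchs1 (-3.61) and Fat3 (-2.29) are past an adjusted p of 0.05 (dark red), and the estimates of the other members (grey) lie between -1.06 and -0.22.

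Levels were compared between genes after dividing the CPM of each by the length of its annotated exons. At E12.5 the order of mean levels in CPM per kb was Fat1 29.9, Fat4 16.9, Dchs1 13.1, Fjx1 6.75, Fat3 5.06, Dchs2 0.491 and Fat2 0.205. The ranges of neighbours in this order overlapped for every pair except Fat3 and Dchs2. At P0 the order was Fat1 24.5, Fjx1 5.38, Dchs1 1.07, Fat3 1.03, Fat4 0.979, Dchs2 0.233 and Fat2 0.176. There Dchs1, Fat3 and Fat4 overlapped with each other and lay below every litter's Fjx1 level of 3.17 or more. By these means Fat4 went from the second level of the family to the fifth, and Fjx1 from the fourth to the second. Single litters did not all keep this order. At E12.5 Dchs1 was above Fat4 in NDP10-2 and Fat3 was above Fjx1 in NPD3. At P0 Fat4 was above Fat3 in NPD26 and NPD27 and above Dchs1 in NPD28. Across litters the P0 ranges of Fat1 (7.80 to 45.4 CPM per kb) and Fjx1 (3.17 to 8.998 CPM per kb) overlapped, but within each of the 4 P0 litters the level of Fat1 was higher, at 7.80 against 4.21, 11.2 against 3.17, 33.4 against 5.15 and 45.4 against 8.998 CPM per kb.

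The make-up of Fat mRNA shifted towards Fat1. Fat1 held 49.8% to 66.4% of the summed CPM per kb of the 4 Fat genes in the E12.5 litters and 81.1% to 95.1% in the P0 litters. Fat4 went from 25.9% to 36.8% at E12.5 to 2.04% to 9.52% at P0, and Fat3 from 7.40% to 12.96% to 2.71% to 6.77%. Fat2 stayed at or under 2.65% in every litter. The summed level itself was 38.4 to 62.0 CPM per kb at E12.5, and 9.62, 13.5, 35.8 and 47.7 CPM per kb in the P0 litters. Of the summed Dachsous level, Dchs1 held 95.5% to 99.0% at E12.5, as against 76.6% to 98.6% at P0. Fat1 itself was not called, so its higher share largely restates the falls of Fat4 and Fat3. The shares are a description, with no test.

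**Figure D3:**
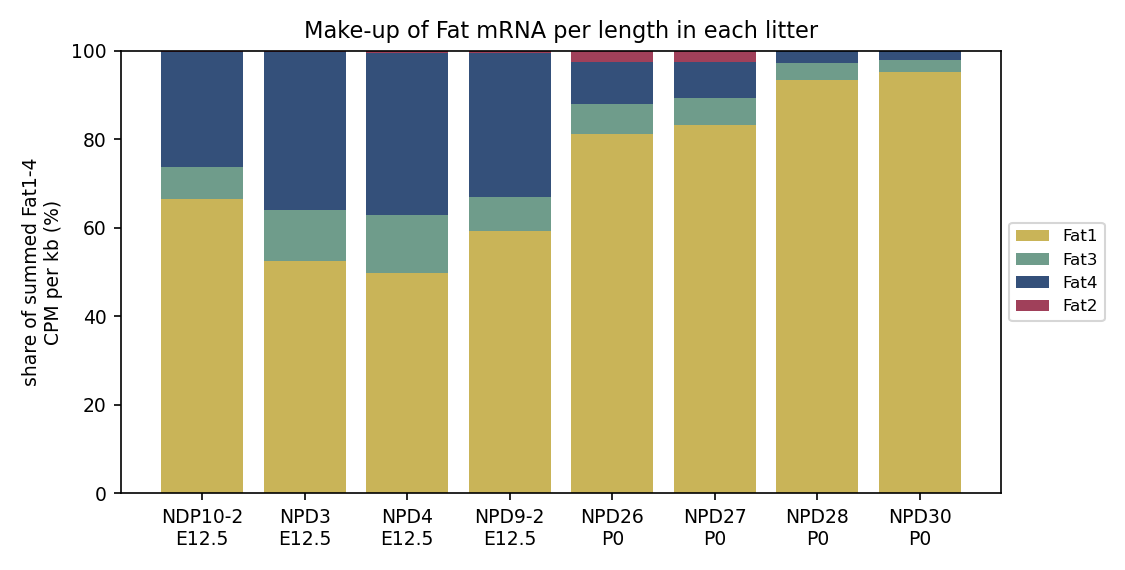
Share of the summed CPM per kb of the 4 Fat genes held by each of them, stacked to 100% for each litter. Fat4 (dark blue) takes 25.9% to 36.8% in the E12.5 litters and 2.04% to 9.52% in the P0 litters, where Fat1 (yellow) takes 81.1% or more.

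Whether members changed by different amounts was asked with the log2 ratio of their read counts within a litter, which does not depend on normalization. An exact permutation test (two-sided) compared the stages, with adjustment over the 6 ratios, and 4 against 4 litters cannot give a p below 0.0286. The ratio of Dchs1 to Fat4, ligand to receptor, was -0.36, -1.63, -1.44 and -0.73 in the E12.5 litters, whereas it was -0.17, -0.45, -0.95 and -0.53 after birth. The stages overlapped. The mean difference of 0.51 (P0 minus E12.5) was within the spread (exact permutation p = 0.229, adjusted p = 0.229), which does not show that the ratio was equal. The ratio of Fat1 to Fat4 was 0.30 to 1.22 at E12.5, and 2.95, 3.23, 5.00 and 5.41 in the P0 litters. All P0 litters were higher, by 3.47 on average (exact permutation p = 0.0286, adjusted p = 0.0429). Fat4 had the largest fall of the family, so a higher ratio of another member to Fat4 largely restates that fall. Like those of edgeR, the p-values of the ratios are not independent evidence for the choice of the family.

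The ratio of Fjx1 to Fat4, kinase to substrate, was also higher in all 4 P0 litters, by 3.75 (exact permutation p = 0.0286, adjusted p = 0.0429). It ranged from -5.24 to -3.08 among E12.5 litters and from -0.90 to 0.76 among P0 litters. Fat3 to Fat4 was higher at P0 by 1.77, from -1.75 to -1.18 at E12.5 to -0.17 to 0.85 at P0 (exact permutation p = 0.0286, adjusted p = 0.0429). Fat2 to Fat4 was higher by 3.33 (exact permutation p = 0.0286, adjusted p = 0.0429), on as few as 3 Fat2 reads in a litter. Dchs2 to Dchs1 had a difference of 2.22 (exact permutation p = 0.114, adjusted p = 0.137). Without the P0 litter NPD28, which had 1 Dchs2 read, its difference was 3.11 (adjusted p = 0.0343 by the exact permutation test). Leaving out any other single litter gave an adjusted p of 0.114 to 0.24 by the same test. Without any single E12.5 litter (NDP10-2, NPD3, NPD4 or NPD9-2) the exact permutation test gave higher adjusted p-values. They were 0.0571 for Fat1, Fat3 and Fjx1 to Fat4 and 0.0857 for Fat2 to Fat4. Leaving out any single P0 litter gave 0.0343 to 0.0429 for these ratios. The smallest p with 4 against 3 litters is also 0.0286, and the adjusted p depends on how many ratios reach it.

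**Figure D4:**
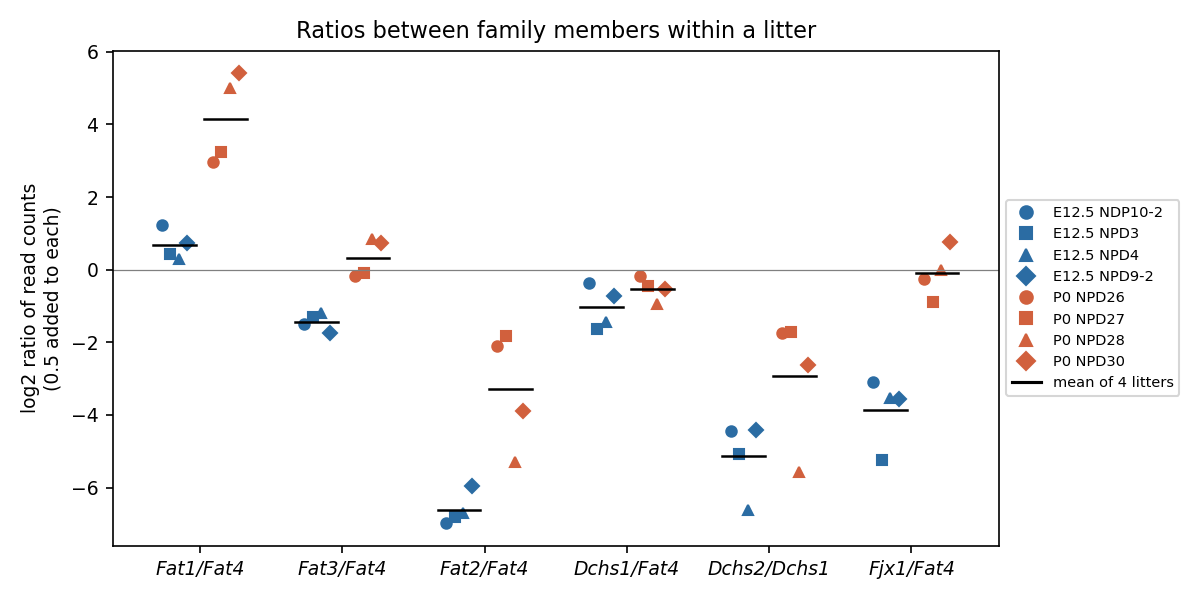
Log2 ratio of read counts between pairs of members within each litter, with a point per litter (blue, E12.5; orange, P0) and a black bar for the mean of 4 litters. The P0 points lie above all E12.5 points for the ratios of Fat1, Fat2, Fat3 and Fjx1 to Fat4, and the stages overlap for Dchs1 to Fat4 and Dchs2 to Dchs1.

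The genes with the most similar profiles were those with the smallest root mean square difference from a member in centred log2 CPM over the 8 litters, among 12642 genes of sufficient abundance. For Fat4 these were Meox1 (0.32), a transcription factor of somites that was also among the 8 sclerotome markers, Mn1 (0.33) and Spon1 (0.33), a matrix protein of the floor plate. For Dchs1 they were Cacna1g (0.25), Scube3 (0.27) and Mfap2 (0.28), a microfibril protein. For Fat3 they were Greb1l (0.24), Pcdhgb1 (0.25) and Ccser1 (0.26). For Fat1 they were Ptprd (0.20), Farp1 (0.20) and Lamb2 (0.24), a laminin chain. For Fjx1 they were Cdc42ep4 (0.21), Kctd17 (0.22) and Gm29361 (0.22). For Fat2 they were Tek (0.37), a receptor of endothelial cells, A930007I19Rik (0.39) and Bmper (0.42). For Dchs2 they included Rps13-ps2 (0.55) and Acta1 (0.56), a muscle actin gene. Within the family Fat4 and Dchs1 were the closest pair, at 0.49, followed by Fat1 and Fjx1 at 0.69. These distances include the stage difference, so genes with similar fold changes lie close to each other. No test was made of them.

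Proteins that bind Fat or Dachsous tails or relay their signal changed in both directions. Of 20 such genes, all tested, 5 fell, 3 rose and 12 did not pass, with a median log2 fold change of -0.19 against 0.036 over all genes tested. The largest falls were those of Fbxl7, whose fly homologue encodes a ubiquitin ligase subunit downstream of Fat (log2 fold change -2.70, adjusted p = 0.00177 by edgeR), Enah, an actin regulator (-2.14, adjusted p = 0.000812), and Mpdz, a scaffold protein (-1.91, adjusted p = 0.000649). Mean abundance of Fbxl7 went from 12.3 ± 2.95 CPM to 1.85 ± 0.89 CPM (SD over n = 4 litters per stage). The genes that rose encode palmitoyltransferases related to the enzyme Approximated of the fly Fat pathway, Zdhhc14 (2.16, adjusted p = 0.00887), Zdhhc18 (1.06, adjusted p = 0.0242) and Zdhhc9 (0.64, adjusted p = 0.0308). Amotl1, a junction protein that binds Fat4, was picked for mention after its values were seen and fell (-1.27, adjusted p = 0.00302). Without the E12.5 litter NDP10-2 5 genes of the list were called in place of 8.

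Of 24 genes of the Hippo kinases and their effectors, all tested, 9 fell, 3 rose and 12 did not pass, with a median of -0.29. The falls were largest for Amot, an angiomotin that holds YAP at junctions, from 103 ± 42.4 CPM to 5.85 ± 0.879 CPM (log2 fold change -4.13, adjusted p = 6.36e-05 by edgeR), for Tead2 from 172 ± 22.9 CPM to 12.8 ± 4.37 CPM (-3.75, adjusted p = 5.27e-05), and for Tead4 from 9.35 ± 5.07 CPM to 2.05 ± 0.916 CPM (-2.18, adjusted p = 0.0133; SD over n = 4 litters per stage). Tead2 and Tead4 encode transcription factors that pair with YAP. Yap1 itself, picked for mention after its values were seen, fell (-1.64, adjusted p = 0.0083). The genes that rose were the kinase genes Taok3 (1.87, adjusted p = 0.00092) and Stk4 (1.29, adjusted p = 0.0237) and the adaptor gene Mob1a (1.13, adjusted p = 0.00849). The kinase gene Map4k4, picked for mention after its values were seen, fell (-0.94, adjusted p = 0.00786 by edgeR). The remaining core kinase genes had estimates near 0 and did not pass, with Stk3 at 0.015, Lats1 at 0.23 and Lats2 at 0.24.

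The core planar polarity genes form a separate module that acts beside Fat and Dachsous. Of the 22 listed 21 were tested, and 7 fell, none rose and 14 did not pass, with a median of -0.88. The falls were largest for Ror1, a Wnt co-receptor (log2 fold change -3.25, adjusted p = 0.000505 by edgeR), Celsr2, an atypical cadherin (-2.94, adjusted p = 0.000466), and Vangl2, a membrane protein central to the module (-2.92, adjusted p = 6.67e-05). Mean abundance of Vangl2 went from 96.7 ± 19.0 CPM to 12.7 ± 2.20 CPM (SD over n = 4 litters per stage). Its paralogue Vangl1 had an estimate of -0.61 and did not pass (adjusted p = 0.187). Without the P0 litter NPD30 11 genes of the list were called.

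Among 22 other atypical cadherin genes 17 were tested, and 4 fell, 2 rose and 11 did not pass, with a median of -0.51. Those that fell furthest were the protocadherin genes Pcdh8 (-3.12, adjusted p = 0.00445 by edgeR), Pcdh18 (-3.06, adjusted p = 0.000141) and Pcdh17 (-2.46, adjusted p = 0.000599). Those that rose were Pcdh20 (2.95, adjusted p = 0.0345) and Ret (1.98, adjusted p = 0.00307), a receptor tyrosine kinase with cadherin repeats. Of 10 secretory pathway kinases and their relatives, listed beside Fjx1, 2 fell, 1 rose and 7 did not pass, with a median of 0.22. Pkdcc, a secreted tyrosine kinase active in skeletal growth, fell from a mean of 96.2 ± 25.1 CPM to 15.8 ± 4.98 CPM (SD over n = 4 litters per stage; log2 fold change -2.60, adjusted p = 0.000302). Fam198b had -2.28 (adjusted p = 0.00295) and Fam198a 1.43 (adjusted p = 0.0381). The shares called were 40.0%, 50.0%, 33.3%, 35.3% and 30.0% of the genes tested in these 5 lists, in the order given, beside 27.9% of all genes tested.

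**Figure D5:**
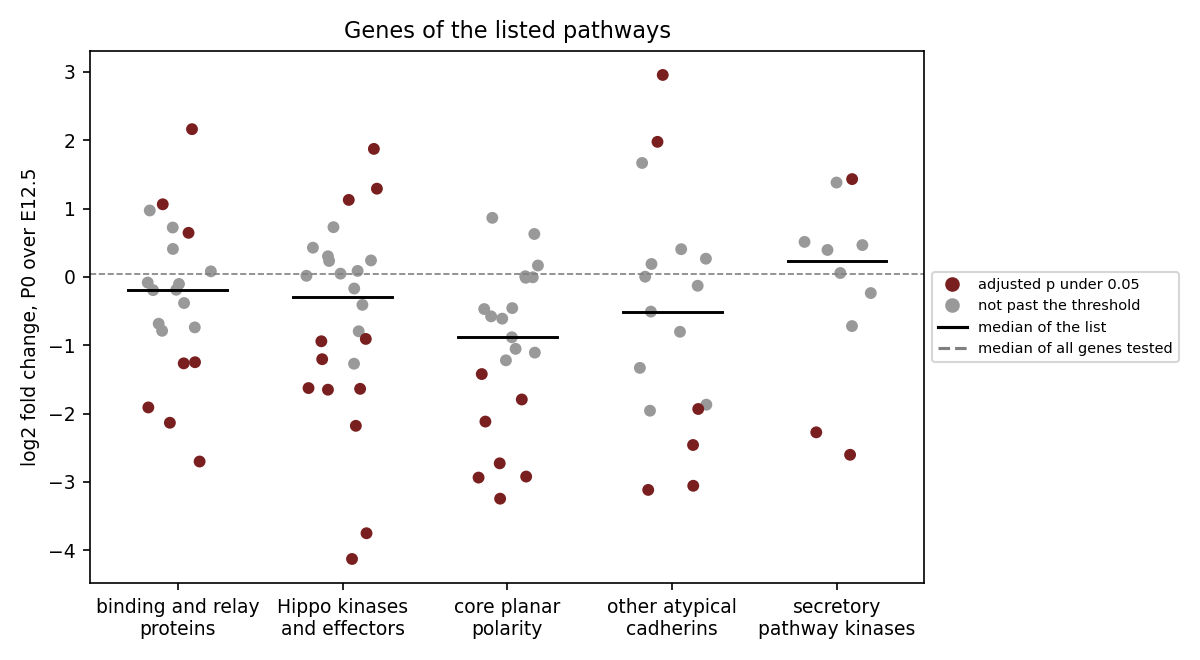
Log2 fold change, P0 over E12.5, of each tested gene in the 5 lists, with a black bar for the median of a list and a dashed line for the median of all genes tested (0.036). Dark red points are past an adjusted p of 0.05. The 7 core planar polarity genes past the threshold all lie below 0, and the lowest points of the Hippo list are Amot (-4.13) and Tead2 (-3.75).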

How the data were processed

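The authors aligned single-end reads to GRCm38 with STAR (2.4.0j per the submitters' processing notes), ran htseq-count on the Gencode M4 annotation and deposited the raw counts of each litter, without normalization. Tallies of reads not counted on a gene were left out. Identifiers were matched to symbols (42462 of 43346) and to exonic lengths in Gencode M21, a later annotation on the same build. In R 4.3.3 the whole table was filtered (filterByExpr, minimum count 10), normalized (TMM) and tested with edgeR 4.0.16 (robust quasi-likelihood F-test, Benjamini-Hochberg adjustment over 15467 genes), and an adjusted p under 0.05 made a call. P-values measure only the spread between these pooled litters. CPM uses TMM library sizes and log2 CPM a prior count of 2. Ratios add 0.5 to each count. The members and lists were chosen with earlier results of these data known. Up to 3 called genes per direction were named in each list, and the 3 genes nearest in profile (mean log2 CPM of at least 2) for each member, of which 1 is not reported here. Alternatives used DESeq2 1.42.0, limma 3.58.1 (voom) and other settings given at the end. The tests were checked on simulated data. No protein sequences were used here.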

Additional observations from a re-analysis of the deposited data

How the results depend on the processing

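The falls of Fat4, Dchs1 and Fat3 kept their direction and an adjusted p under 0.05 in all 8 fits that left out 1 litter and under DESeq2 size factors, no filter, DESeq2's Wald test, limma-voom, mitochondrial and hemoglobin genes left out, downsampled counts, an exonic length correction, and, added after seeing the data, NDP10-2 and NPD9-2 (the litters with most ambiguous reads) left out. Over these other settings the log2 fold changes were -4.25 to -3.87 for Fat4, -3.63 to -3.19 for Dchs1 and -2.59 to -2.04 for Fat3. Leaving out 1 litter gave -4.21 to -3.98 for Fat4, -3.79 to -3.46 for Dchs1, -2.45 to -2.11 for Fat3, -0.82 to 0.016 for Fat1, -0.83 to 0.16 for Fat2, -1.44 to -0.64 for Dchs2 and -0.72 to -0.13 for Fjx1, with none of the last 4 past the threshold. Fat2 turned to 0.034 under the length correction. Without NDP10-2 and NPD9-2, Dchs2 turned to 0.19 and Fjx1 to 0.096, 2581 genes were called in place of 4321, and the list of binding and relay proteins had 4 called and the Hippo list 6, in a fit with fewer samples. Leaving out 1 litter gave 3612 to 4529 genes over the whole table, and 5 to 10, 9 to 14, 7 to 11, 5 to 8 and 2 to 3 in the lists in the order of the report. It gave ratio differences of 3.05 to 3.87 for Fat1 to Fat4, 1.59 to 1.93 for Fat3 to Fat4, 2.84 to 4.00 for Fat2 to Fat4, 0.32 to 0.74 for Dchs1 to Fat4, 1.73 to 3.11 for Dchs2 to Dchs1 and 3.29 to 4.02 for Fjx1 to Fat4. Adding 1 read or downsampling changed no call of a ratio. Depth and the spread between litters limit Fat2 and Dchs2. No paired analysis was possible because the labels give the litters of the stages no shared numbers.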
